A study of Sus scrofa with 12 samples.

Results

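The genes described here, 4 in number, carry bile acids into, through and out of the intestinal cell or sense them there, and they were followed across piglet jejunum libraries. They were FABP6, NR1H4, SLC51A and ENSSSCG00000026317, the Ensembl identifier that the pig annotation pairs with SLC10A2. They were found by gene name in the deposited expression table, where each has 1 row, and they are 4 of 17049 gene names.

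Conjugated bile acids are made in the liver, released into the gut and taken back up near the end of the small intestine. SLC10A2 (the apical sodium-dependent bile acid transporter, ASBT) brings them into the enterocyte, FABP6 (the ileal bile acid binding protein) carries them through the cytosol, and SLC51A (the alpha subunit of the basolateral exporter, which works with SLC51B) passes them to the portal blood. NR1H4 (the farnesoid X receptor, FXR) is the nuclear receptor that bile acids bind, and FABP6, SLC51A, the hormone gene FGF19 and the repressor gene NR0B2 are well known targets of it. FABP6 and SLC10A2 are best known from the ileum. In the jejunum the transcription factor GATA4 is known to hold such ileal genes low.

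The tissue of every library was labelled jejunum, and the 12 libraries formed 4 groups of 3 piglets. The groups W_Con and PW_Con came from sows on the control treatment and held sucking piglets of 21 days, sampled at weaning, and weaned piglets of 28 days, sampled 7 days later. The groups W_Res and PW_Res held piglets of the same ages from sows given resveratrol, a plant polyphenol, at 300 mg/kg through gestation and lactation. Piglets were cross-fostered between sows of the same diet, and for control sows the study's methods take 1 male piglet of a litter at each age. The labels do not tie the sequenced piglets to litters, so p-values measure the spread between piglets, and whether litters recur at both ages was not taken into account. The series text names Landrace boars and the study's methods Yorkshire and Duroc animals, so the breed is not certain. Values are FPKM, fragment counts scaled by transcript length and by sequencing depth, and can be set side by side between genes.

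The libraries were not alike in the tissue they held. The extraction protocol in the labels speaks of adipose tissue, although the tissue label is jejunum. Enterocyte markers (7 of 9 found) summed to 1445 FPKM in W_Res replicate 2 and to 2792 to 5108 FPKM in the other 11 libraries, with VIL1, the gene of the brush border protein villin, at 296 to 1062 FPKM. Smooth muscle markers (7 of 8 found) summed to 1825 and 3979 FPKM in W_Res replicates 1 and 2 and to 155 to 670 FPKM in the other 10. Lymphocyte markers (8 of 8 found) summed to 370 FPKM in PW_Con replicate 2 and to 198 to 281 FPKM in the other 11. Hepatocyte markers (4 of 5 found) summed to 2.08 FPKM at most, with ALB at 2.01 FPKM or lower. Relative depth, read from the step between low values, lay between 1 and 1.449 times that of W_Con replicate 1. In bulk tissue, fewer cells of a type and less RNA per cell cannot be told apart.

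FABP6 had the widest range of the 4 genes. In W_Con it stood at 8055, 1231 and 9.10 FPKM in replicates 1, 2 and 3, and in PW_Con at 9621, 8791 and 6518 FPKM. In W_Res it stood at 128, 12.2 and 6146 FPKM, and in PW_Res at 24110, 1.70 and 4.81 FPKM. PW_Con was the only group in which all 3 piglets were high, and each of the other groups held both high and low piglets. The highest and lowest piglets of PW_Res differed 14206-fold, against 1.48-fold in PW_Con. FABP6 was the gene name with the highest FPKM in 4 of the 12 libraries, and it made up 7.24% of all FPKM in PW_Res replicate 1 but 0.000518% in PW_Res replicate 2.

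SLC10A2, which works one step before FABP6, was far lower and followed a like order. It stood at 54.6, 22.7 and 4.15 FPKM in W_Con and at 58.9, 47.7 and 65.1 FPKM in PW_Con. In W_Res it stood at 11.7, 1.67 and 12.9 FPKM, and in PW_Res at 65.9, 6.69 and 2.64 FPKM. PW_Con was again the group with 3 high piglets. W_Res replicate 3 was high in FABP6 while its SLC10A2 stayed close to that of W_Res replicate 1.

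Taken as a fold, SLC51A, the exporter subunit, had the narrowest range, 37.9 to 319 FPKM (8.40-fold) over the 12 libraries. It stood at 118, 82.9 and 48.4 FPKM in W_Con and at 239, 225 and 125 FPKM in PW_Con, with no overlap between these groups. In W_Res it stood at 81.1, 37.9 and 164 FPKM, and in PW_Res at 319, 80.9 and 91.6 FPKM, where the groups overlapped. Its lowest value was above 37 FPKM, so no library lacked it, whereas FABP6 fell below 5 FPKM in both low piglets of PW_Res.

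NR1H4, the receptor, stood at 37.8, 13.2 and 11.4 FPKM in W_Con and at 41.2, 22.9 and 33.0 FPKM in PW_Con. In W_Res it stood at 10.4, 1.93 and 57.1 FPKM, and in PW_Res at 24.1, 5.69 and 5.88 FPKM. Its highest and its lowest value both came from W_Res, in replicates 3 and 2.

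**Figure D1:**
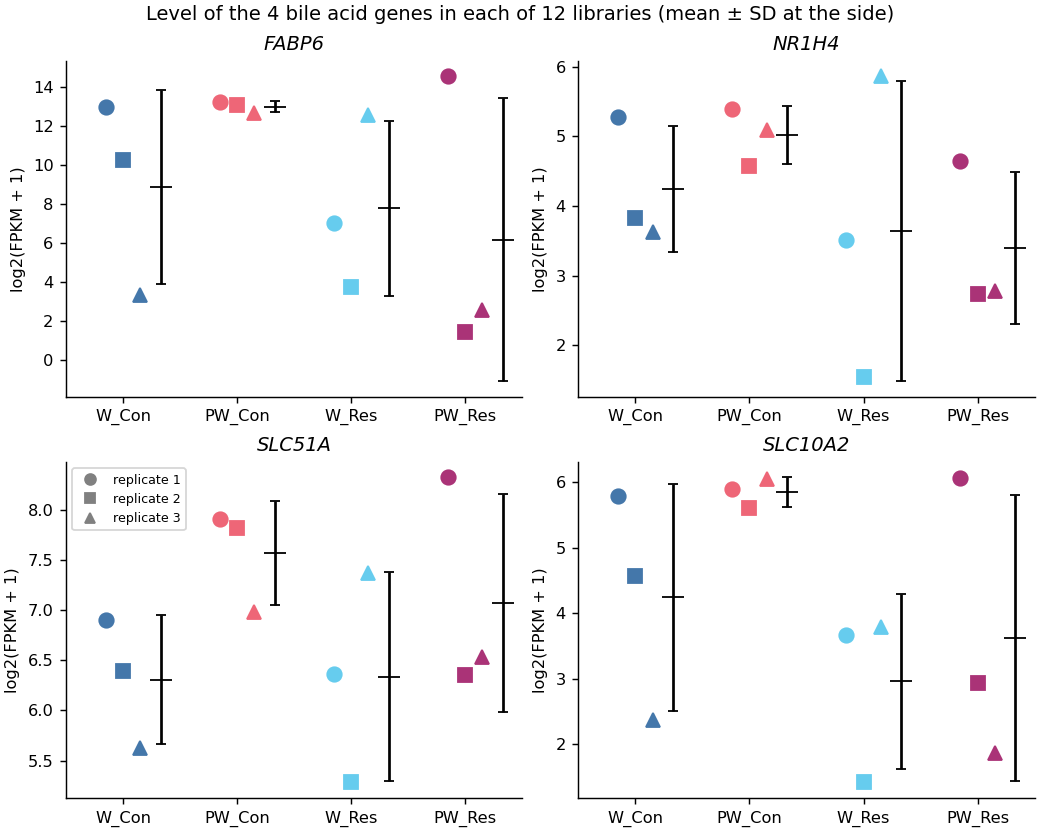
Level of FABP6, NR1H4, SLC51A and SLC10A2 as log2(FPKM + 1) in each of the 12 libraries, by group, with symbols for the replicate number and the group mean ± SD drawn at the right of each group (n = 3). The 3 PW_Con piglets lie close together for FABP6 and SLC10A2, and in PW_Res replicate 1 lies far above replicates 2 and 3.

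Most of the variation lay between piglets of the same group. The pooled SD within groups of log2(FPKM + 1) was 4.95 for FABP6, the highest of 12886 gene names with a mean of at least 0.5 FPKM. It was 1.55 for SLC10A2 (place 105), 1.31 for NR1H4 (place 161) and 0.86 for SLC51A (place 568), against a median of 0.34 over all these genes. The share of the variance that lay within groups was 74.2% for NR1H4, 71.9% for FABP6, 63.6% for SLC51A and 58.3% for SLC10A2, against a median of 60.2% over all genes. In that share the 4 genes lay on both sides of the median.

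The first comparison asked how weaning moved these genes in control litters. The 4 genes were picked by the study on these 6 libraries, so the comparison describes them and is not independent evidence of a direction. The same limit holds, in part, wherever W_Con or PW_Con enters a later comparison. By limma on log2(FPKM + 1), SLC51A was 1.26 ± 0.38 (SE) higher on the log2 scale in PW_Con than in W_Con (adjusted p = 0.173). It was the 1 gene of the 4 past the study's standard, an unadjusted P under 0.05 with a log2 fold change above 1 or below -1. Of 12611 gene names tested, 3.31% passed that standard in either direction and 1.5% passed it upwards. SLC51A was also the 1 gene of the 4 whose groups did not overlap, which held for 12.6% of all gene names in the upward direction.

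The other 3 genes had higher means in PW_Con and did not pass. The log2 difference was 4.14 ± 2.14 (SE) for FABP6 (adjusted p = 0.363 by limma), 1.61 ± 0.76 for SLC10A2 (adjusted p = 0.323) and 0.78 ± 0.45 for NR1H4 (adjusted p = 0.41). The calls turned on 2 piglets of W_Con. Without W_Con replicate 3, the low piglet, none of the 4 genes passed and FABP6 came to 1.38. Without W_Con replicate 1, whose values lay near those of PW_Con, all 4 passed, with FABP6 at 6.20, and 4.38% of all gene names did. An exact two-sided permutation test of 3 against 3 libraries cannot go below p = 0.1, which SLC51A reached (exact permutation p = 0.1), while FABP6 and SLC10A2 stood at p = 0.2 and NR1H4 at p = 0.3 by the same exact test. The linear model of Ballgown, with its library covariate, put all 4 genes past the standard, with adjusted p from 0.238 to 0.337, and 4.1% of all gene names.

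Marker genes moved with this comparison. In W_Con, proximal intestine markers (10 of 12 found) summed to 3599 to 15404 FPKM, and in PW_Con to 978 to 2918 FPKM, so that the groups did not overlap. FABP1 made up most of that sum. The 8 distal markers found of 11 summed to 118 to 489.5 FPKM in W_Con and to 195 to 326 FPKM in PW_Con. The part of these markers in the values of the 4 genes was not tested.

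In resveratrol litters, which the study did not use to pick the genes, none of the 4 passed the standard between W_Res and PW_Res, against 4.75% of 13013 gene names. The log2 difference was -1.60 ± 3.60 (SE) for FABP6 and -0.25 ± 1.03 for NR1H4, while SLC51A came to 0.73 ± 0.66 and SLC10A2 to 0.66 ± 1.09, with limma adjusted p of 0.868, 0.931, 0.64 and 0.812. No gene of the 4 had an unadjusted P under 0.05. The median log2 difference over all genes was -0.16 here. Only the sign for SLC51A stayed the same whichever of the 6 libraries was left out, with a range of 0.11 to 1.25. FABP6 ran from -5.79 without PW_Res replicate 1, where it passed the standard (limma adjusted p = 0.421), to 0.81 without W_Res replicate 3. Smooth muscle markers summed to 670 to 3979 FPKM in W_Res and to 205 to 644 FPKM in PW_Res, without overlap. In W_Res replicates 1, 2 and 3 distal markers summed to 173, 121 and 602 FPKM and proximal markers to 6027, 5485 and 2173 FPKM. In PW_Res distal markers summed to 104 to 485 FPKM and proximal markers to 2454 to 9484 FPKM. The part of these 3 kinds of marker in the values of the 4 genes was not tested.

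The weaning effect was then compared between the 2 kinds of litter. The difference of the effects was -5.74 ± 4.77 (SE) for FABP6, -1.03 ± 1.27 for NR1H4, -0.95 ± 1.51 for SLC10A2 and -0.53 ± 0.85 for SLC51A on the log2 scale. None passed the standard, which 7.76% of 12886 gene names did, and limma adjusted p lay between 0.612 and 0.809. With 1 library left out FABP6 ran from -9.93 without PW_Res replicate 1, where it passed the standard, to -2.98 without W_Con replicate 3. SLC10A2 ran from -2.17 to -0.0067 without the same 2 libraries, and SLC51A from -1.16 without PW_Res replicate 1 to -0.015 without W_Res replicate 3. The standard errors leave room for a difference of several fold in either direction for FABP6, NR1H4 and SLC10A2. Without W_Res replicates 1 and 2, the libraries rich in smooth muscle markers, NR1H4 came to -3.25 (limma adjusted p = 0.248, with 0.248 to 0.975 over all alternatives). That fit leaves W_Res with 1 piglet, the one highest in NR1H4 of all 12, and assumes that it varies like the other groups.

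The fit over all 12 libraries reused the 6 control libraries on which the genes were picked, so it too describes them. With diet as a second term, 28 days stood above 21 days by 1.00 ± 0.41 (SE) on the log2 scale for SLC51A (limma adjusted p = 0.258), by 1.14 ± 0.73 for SLC10A2 (adjusted p = 0.443), by 1.27 ± 2.42 for FABP6 (adjusted p = 0.813) and by 0.27 ± 0.63 for NR1H4 (adjusted p = 0.853). None of the 4 passed, against 1.34% of all gene names. SLC51A met the bound on P, but its log2 value of 0.998 lay just under 1, and with a pseudocount of 0.1 it passed at 1.01. The exact permutation test of 6 against 6 libraries gave p = 0.0563 for SLC51A, and a 28-day piglet was the higher one in 29 of 36 pairs of libraries. For SLC10A2 that was so in 26 of 36 pairs, for FABP6 in 23 and for NR1H4 in 19. Without W_Res replicates 1 and 2, which leaves that group with 1 piglet, NR1H4 came to -0.30 on the log2 scale.

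The last comparisons set litters of resveratrol sows against control litters of the same age. At 21 days none of the 4 genes passed the standard, which 4.47% of 13186 gene names did. The log2 difference, W_Res minus W_Con, was -1.09 ± 2.81 (SE) for FABP6, -0.60 ± 1.00 for NR1H4, -1.28 ± 0.94 for SLC10A2 and 0.03 ± 0.54 for SLC51A, with limma adjusted p from 0.559 to 0.986. With 1 library left out SLC10A2 ran from -2.22 without W_Con replicate 3 to -0.51 without W_Con replicate 1, and it passed the standard at the first of these. NR1H4 passed without W_Res replicate 3, at -1.71. Smooth muscle markers summed to 670 to 3979 FPKM in W_Res and to 155 to 646 FPKM in W_Con, without overlap. Distal markers summed to 121 to 602 FPKM in W_Res and to 118 to 489.5 FPKM in W_Con. Proximal markers summed to 2173 to 6027 FPKM and to 3599 to 15404 FPKM in the same groups. The part of these markers in the values of the 4 genes was not tested.

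At 28 days the control group, PW_Con, was one of the groups on which the genes were picked, so a lower level in PW_Res is a description and not independent evidence. NR1H4 was lower in PW_Res than in PW_Con, with a difference of -1.63 ± 0.52 (SE) on the log2 scale (limma adjusted p = 0.404), and it was the 1 gene of the 4 past the standard. Of 12380 gene names 1.81% passed in either direction and 0.953% passed downwards. The groups overlapped, since PW_Res replicate 1 lay above PW_Con replicate 2. The log2 difference was -6.83 ± 3.13 for FABP6, the lowest of all gene names tested, but with a limma adjusted p of 0.519. It was -2.23 ± 0.95 for SLC10A2 (adjusted p = 0.491) and -0.50 ± 0.54 for SLC51A (adjusted p = 0.773).

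Each PW_Res piglet moved the size of these differences. Without PW_Res replicate 1 all 4 genes passed the standard, at -11.02 for FABP6, -3.45 for SLC10A2, -2.26 for NR1H4 and -1.12 for SLC51A, with adjusted p of 0.000634 for FABP6 and 0.0423 for SLC10A2 by limma. Of all gene names 3.46% passed without that library. Over all alternatives the adjusted p ran from these values up to 0.798 for FABP6 and 0.775 for SLC10A2. Without PW_Res replicate 2 the log2 difference was -4.45 for FABP6 and -0.14 for SLC51A, and without PW_Res replicate 3 it was -5.01 for FABP6, -1.35 for SLC10A2 and -0.23 for SLC51A. SLC51A also came to -0.33 without PW_Con replicate 1 and to -0.80 without PW_Con replicate 3. PW_Res replicate 1 itself held the highest FABP6, SLC51A and SLC10A2 of the 12 libraries. NR1H4 no longer passed without PW_Con replicate 1, PW_Res replicate 2 or PW_Res replicate 3, with values from -1.30 to -1.44. In the Ballgown model and in the joint fit of all 12 libraries, none of the 4 genes passed. Proximal markers summed to 2454 FPKM in PW_Res replicate 1 and to 4053 and 9484 FPKM in replicates 2 and 3, and distal markers to 485, 104 and 118 FPKM in the same order.

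**Figure D2:**
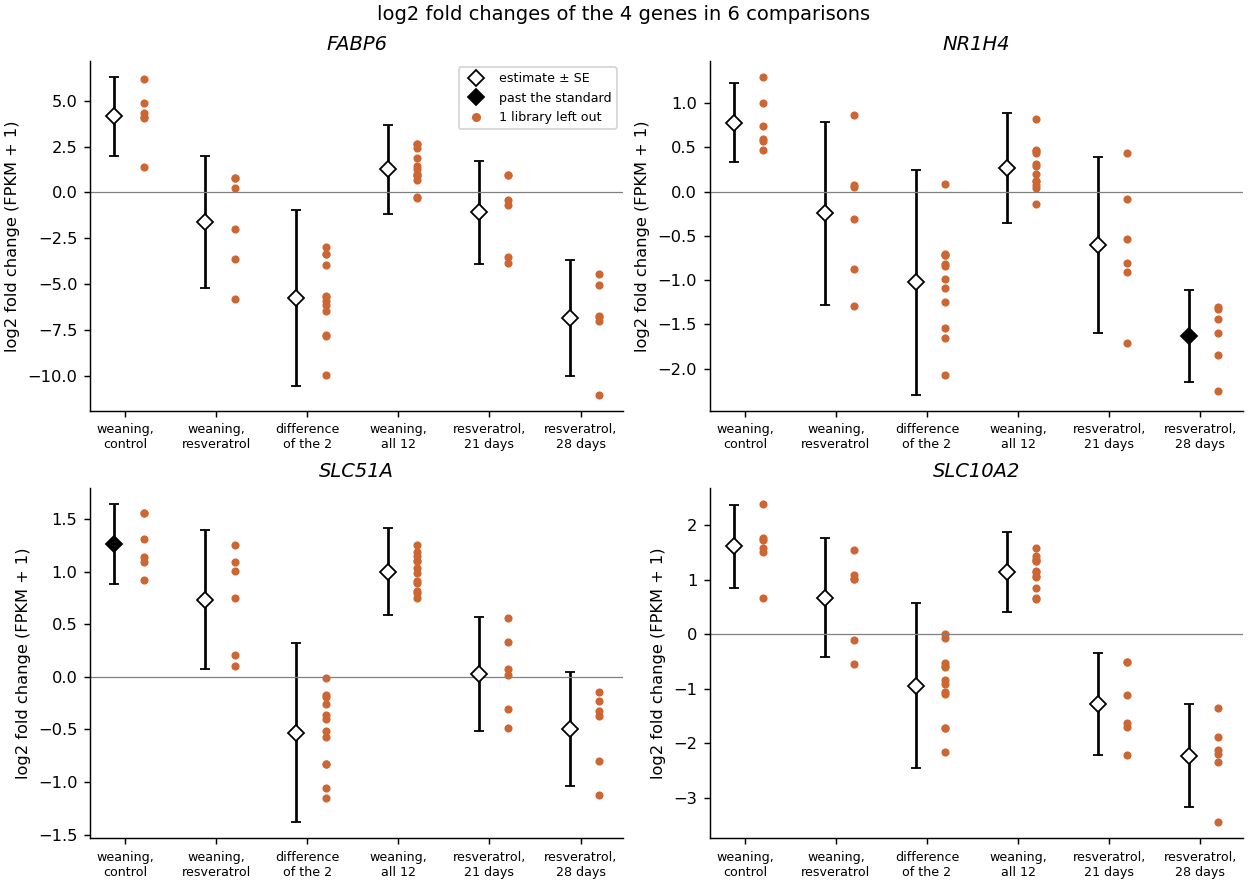
log2 fold changes of FABP6, NR1H4, SLC51A and SLC10A2 in the 6 comparisons, with diamonds for the estimate ± SE (filled where past the standard) and small dots for the estimate with 1 library left out. SLC51A is past the standard for weaning in control litters and NR1H4 for resveratrol at 28 days, and the FABP6 dots for resveratrol at 28 days reach -11.02.

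The 4 genes rose and fell together from piglet to piglet. Over the 12 libraries the Pearson correlation of log2(FPKM + 1) was 0.909 for FABP6 and SLC10A2, 0.86 for FABP6 and NR1H4, and 0.807 for FABP6 and SLC51A. It was 0.805 for NR1H4 and SLC10A2, 0.804 for SLC51A and SLC10A2, and 0.752 for NR1H4 and SLC51A. Spearman's rho for the same 6 pairs lay between 0.755 and 0.881. Permutation p-values, adjusted over the 6 pairs, were 0.00192 to 0.00486 for r and 0.00234 to 0.00634 for rho. The genes were put together with earlier results known and the libraries share their groups, so these values describe how the genes vary and do not test a hypothesis set beforehand.

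The relation was also seen with group means taken out and within each age. With each library centred on its group mean, r for the 6 pairs was 0.761 to 0.932. Within the 6 libraries of 21 days it was 0.744 to 0.936, and within the 6 libraries of 28 days 0.761 to 0.964. Without the 2 libraries farthest from the median of the first gene of each pair, r was 0.646 to 0.920. Within the 7 libraries with more than 1000 FPKM of FABP6, a division made after the values were seen, r was 0.865 for FABP6 and SLC51A, 0.577 for FABP6 and SLC10A2 and 0.44 for FABP6 and NR1H4. There it was 0.388 for SLC51A and SLC10A2, 0.253 for NR1H4 and SLC51A and -0.10 for NR1H4 and SLC10A2. For each of the 6 pairs except FABP6 and SLC51A, r was thus lower within those libraries than over all 12.

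Ranked against 11433 other gene names with a mean of at least 1 FPKM, SLC10A2 was place 8 in likeness to FABP6, NR1H4 place 21 and SLC51A place 58. Seen from SLC10A2, FABP6 was place 5 of all gene names. Among the symbol genes most like FABP6 were C10orf99 (r = 0.970), CLCN1 (0.917), TMIGD1 (0.911) and SLPI (0.910). C10orf99, a small secreted peptide gene, was at 12.8 FPKM or higher in the 7 libraries with more than 1000 FPKM of FABP6 and at 3.08 FPKM or lower in the other 5. It was picked for its likeness to FABP6 in these same libraries, so that split only describes it.

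Among gene names that are symbols, those most like SLC10A2 were TLE4 (r = 0.940), C10orf99 (0.928), GALNT12 (0.921), FABP6 itself and DNASE1 (0.890). Those most like NR1H4 were TEC (0.907), STK38L (0.902), TMEM171 (0.901), RNF180 (0.891) and TMIGD1 (0.889). Those most like SLC51A were BAIAP2L2 (0.904), RLN3 (0.890), CAPN1 (0.887), NAALADL1 (0.880) and C10orf99 (0.874). CAPN1, a calpain protease, varied little, from 79.2 to 158 FPKM, while the peptidase gene NAALADL1 ran from 102 to 1152 FPKM.

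At the other end of the same ranking stood GATA4, a transcription factor of the proximal small intestine, which was singled out after its values were seen. It stood at 0.868, 5.19 and 23.8 FPKM in W_Con and at 1.69, 3.33 and 1.96 FPKM in PW_Con. In W_Res it stood at 9.65, 24.1 and 0.772 FPKM, and in PW_Res at 0.758, 20.3 and 19.1 FPKM. The 5 libraries with the lowest FABP6 were the 5 with the highest GATA4. The Pearson r of GATA4 with FABP6 was -0.96 over 12 libraries, the lowest of the 11433 gene names, and Spearman's rho was -0.83. It was -0.98 within the 6 libraries of each age, -0.97 after centring on group means and -0.96 without the 2 libraries farthest from the FABP6 median. With NR1H4, SLC10A2 and SLC51A, GATA4 had r of -0.91, -0.87 and -0.82.

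The distal marker CUBN, an ileal receptor for the intrinsic factor and vitamin B12 complex, did not follow FABP6 in every library. It stood at 57.4, 18.9 and 0.149 FPKM in W_Con and at 9.67, 0.202 and 76.7 FPKM in W_Res, in the order of FABP6 in both groups. In PW_Res it stood at 57.1, 6.6 and 0.734 FPKM, highest in the same piglet as FABP6 but with the other piglets in the reverse order. In PW_Con it stood at 1.96, 29.4 and 1.69 FPKM, although FABP6 was high in all 3 of those piglets. CUBN is 1 of the 8 distal markers found, and the markers were not alike in PW_Con. In replicates 1, 2 and 3, SLC26A3 stood at 35.9, 24.4 and 31.2 FPKM, CA4 at 36.0, 22.7 and 60.2 and PYY at 29.9, 34.3 and 40.3. NTS (18.0, 31.0 and 19.6 FPKM), AMN (3.54, 10.1 and 1.54) and CLCA4 (65.3, 167 and 28.8) were highest in replicate 2, as CUBN was.

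**Figure D3:**
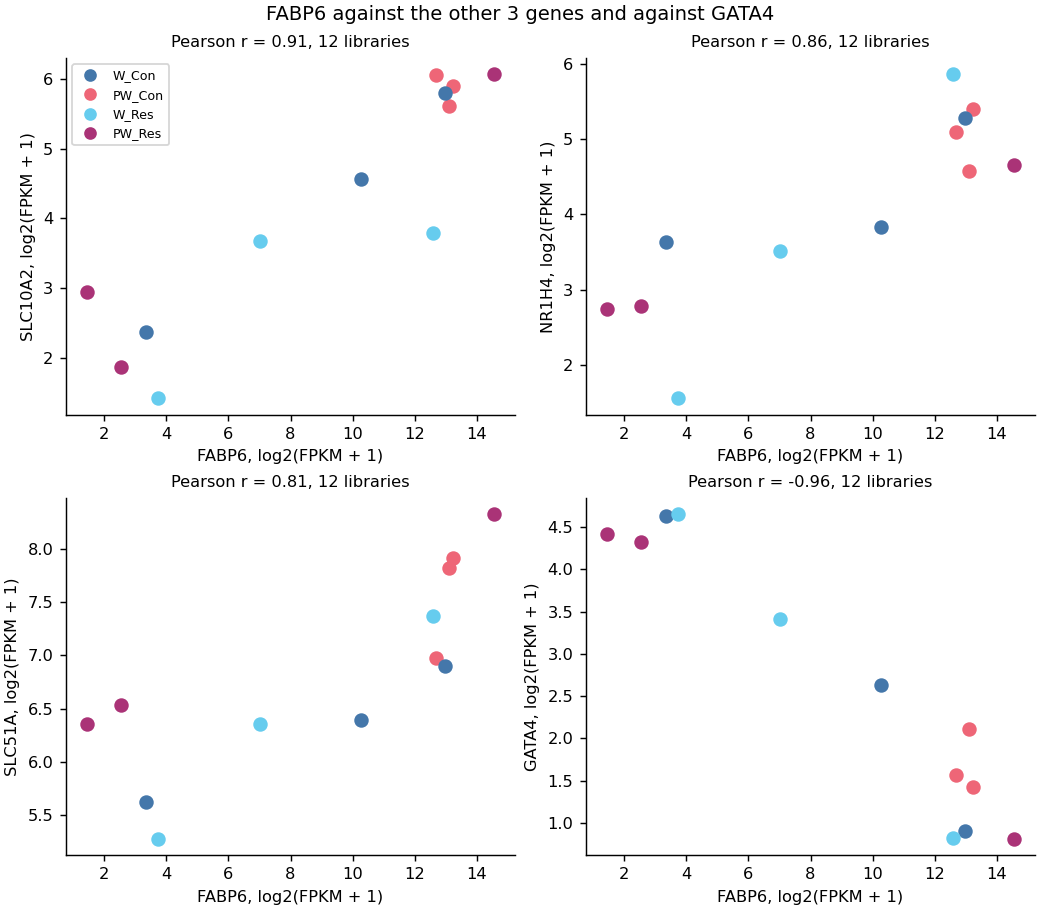
SLC10A2, NR1H4, SLC51A and GATA4 against FABP6, all as log2(FPKM + 1), with 1 point for each of the 12 libraries coloured by group. The first 3 rise with FABP6 (r = 0.91, 0.86 and 0.81) and GATA4 falls with it (r = -0.96), with libraries of each group except PW_Con at both ends.

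Other genes of bile acid handling were taken from 5 lists of 57 genes, of which 43 were found and 36 to 39 tested, depending on the comparison. In control litters 1 of the 38 tested rose at weaning past the standard and 3 fell, and in resveratrol litters 2 rose and none fell, against 3.31% and 4.75% of all gene names past the standard in either direction. At 28 days with maternal resveratrol 3 of 36 were higher and none lower, and at 21 days 1 of 39 was higher, against 1.81% and 4.47% of all gene names. None of these had a limma adjusted p under 0.05. An unadjusted P under 0.05 was found for 10, 5, 4 and 6 of the listed genes in these comparisons, and for 2236 of 12611, 1734 of 13013, 1262 of 12380 and 1754 of 13186 gene names over all, in the same order.

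Among the targets of NR1H4, FGF19 encodes the hormone by which the ileum restrains bile acid synthesis in the liver, and it is shown for that role although it passed in no comparison. It stood at 0.211, 3.40 and 0.201 FPKM in W_Con, 0.678, 16.2 and 0.610 in PW_Con, 0.563, 0 and 2.74 in W_Res, and 39.6, 0.243 and 0.0151 in PW_Res. PW_Res replicate 1 was again the highest of the 12. PW_Con replicates 1 and 3 were low in FGF19 although FABP6 was high in both, and r of FGF19 with FABP6 was 0.618 and with NR1H4 0.371 over the 12 libraries.

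NR0B2, the small heterodimer partner (SHP), a repressor that NR1H4 induces, did not follow NR1H4. It stood at 1.01, 25.8 and 21.6 FPKM in W_Con and at 4.94, 6.43 and 1.36 FPKM in PW_Con. In W_Res it stood at 15.7, 26.8 and 18.0 FPKM, and in PW_Res at 15.6, 15.3 and 12.0 FPKM. All 3 PW_Res piglets were above all 3 PW_Con piglets, which held for 673 of 12380 gene names in that direction. The log2 difference was 1.69 ± 0.41 (SE; limma adjusted p = 0.377), past the standard. Over the 12 libraries r of NR0B2 was -0.571 with NR1H4 and -0.513 with FABP6.

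Of the receptor partners, RXRG, a retinoid X receptor of the family that pairs with NR1H4, stood at 4.74, 4.93 and 3.64 FPKM in PW_Con and at 16.4, 10.1 and 9.59 FPKM in PW_Res. The groups did not overlap, as for 673 of 12380 gene names in that direction, and the log2 difference was 1.23 ± 0.24 (SE; limma adjusted p = 0.317). From W_Res to PW_Res, the groups that differed in smooth muscle markers, it rose by 1.34 ± 0.29 on the log2 scale, and it did not pass in control litters at 0.23 ± 0.19. The difference between these effects was 1.11 ± 0.34 and past the standard, with a limma adjusted p of 0.252. NR1I3, the constitutive androstane receptor, fell in control litters by 1.39 ± 0.51 and was higher in PW_Res than in PW_Con by 1.20 ± 0.30. VDR, NR1I2 and NR1H2, the receptor genes with the highest mean levels in their list at 63.7, 53.2 and 22.5 FPKM, passed in none of the 6 comparisons.

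Of the transporters, the drug exporter ABCB1, the sterol transporter subunit ABCG8 and the basolateral exporter ABCC3 had the highest means at 57.3, 21.9 and 13.1 FPKM, and none passed in any comparison. SLCO1A2, an organic anion uptake carrier, was at 3.37 to 4.61 FPKM in W_Res and at 0 to 2.81 FPKM in W_Con, a log2 difference of 1.14 ± 0.49 (SE; limma adjusted p = 0.375), and it was the transporter past the standard. The second exporter subunit SLC51B was not analysed here.

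Of the transcription factors, HNF4A was at 116 to 224 FPKM, CDX2 at 14.4 to 24.8 FPKM and GATA6 at 9.28 to 33.2 FPKM, and none of them passed in any comparison. FOS, an immediate early gene whose protein is known to act on the SLC10A2 promoter, rose at weaning in control litters by 1.03 ± 0.27 (SE) and in resveratrol litters by 1.5 ± 0.32 on the log2 scale. Over 12 libraries its rise was 1.26 ± 0.22, with a limma adjusted p of 0.0554. Every 28-day piglet (20.8 to 28.0 FPKM) was above every 21-day piglet (5.11 to 16.8 FPKM). Such a separation in the upward direction held for 86 of 12886 gene names.

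Bile acid synthesis is mainly known from the liver, and 7 of the 10 genes found in its list were tested in control litters. AMACR, HSD17B4 and HSD3B7 had the highest means in that list at 18.9, 11.4 and 5.84 FPKM and passed in no comparison, and CYP27A1, a sterol hydroxylase, passed in the difference between litters at -1.06 ± 0.45 (SE; limma adjusted p = 0.331). The median log2 difference of the 7 tested synthesis genes was -0.45 in resveratrol litters, against -0.16 over all genes, and it was -0.12 in control litters, against -0.02.

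FABP1 and FABP2, the liver and intestinal fatty acid binding proteins, went the other way from FABP6 in control litters. FABP1 stood at 3311, 11019 and 12407 FPKM in W_Con and at 2306, 2762 and 891 FPKM in PW_Con, a fall by 2.11 ± 0.62 (SE; limma adjusted p = 0.17) on the log2 scale. FABP2 stood at 260, 759 and 419 FPKM and at 131, 106 and 60.3 FPKM in the same groups, a fall by 2.20 ± 0.43 (adjusted p = 0.117). Neither pair of groups overlapped, which held for 1600 of 12611 gene names in the downward direction. In resveratrol litters FABP1 differed by 0.19 ± 0.64 and FABP2 by -0.43 ± 0.60, and FABP1 passed the standard in the difference between litters at 2.30 ± 0.97 (adjusted p = 0.331). FABP6 was above FABP1 in 6 of the 12 libraries. FABP1 is also 1 of the proximal markers, and FABP2 1 of the enterocyte markers used here. FABP5, the epidermal member, had a mean of 27.1 FPKM and passed in no comparison.

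**Figure D4:**
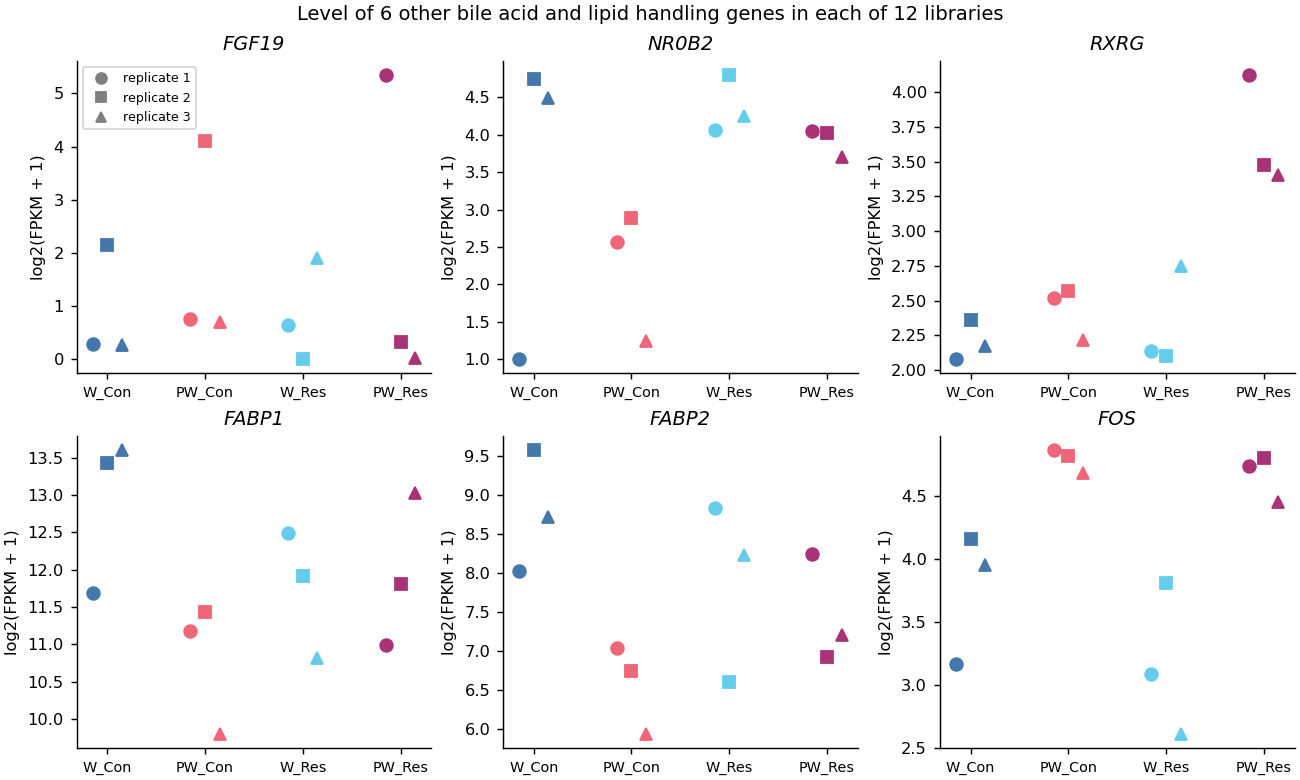
Level of FGF19, NR0B2, RXRG, FABP1, FABP2 and FOS as log2(FPKM + 1) in each of the 12 libraries, by group, with symbols for the replicate number. FOS is higher in all 6 libraries of 28 days, RXRG is highest in the 3 PW_Res piglets, and FABP1 and FABP2 are lower in PW_Con than in W_Con.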

How the data were processed

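The labels and the study's methods describe poly(A) RNA from jejunum, sequenced as paired-end reads. The authors deposited FPKM for 41264 rows. The methods name TopHat, StringTie and Ballgown against the Ensembl pig genome, and the submitters' processing notes list Bowtie 0.12.2, HISAT2 2.0 and StringTie 1.3.0 with the builds Sscrofa10.2 and mm8. The table holds no counts, so depth was only estimated relative to W_Con replicate 1 from the step between low FPKM values, a rough estimate that was least clear in W_Res replicates 1 and 2. The 17650 rows without a gene name were left out, and rows that share a name were summed.

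Groups were taken from the labels. Each comparison was fitted with limma 3.58.1 in R 4.3.3 (trended variance) on log2(FPKM + 1), which understates the change of low genes, over gene names that averaged 0.5 FPKM or more in its libraries, and p-values were adjusted by the Benjamini-Hochberg method over all of them. The standard was P under 0.05 with a log2 fold change beyond 1 in either direction. The fit was tested on simulated data with 200 changed genes. Exact permutation tests used single genes, and correlations used 100000 resamples. Named were the 4 genes, listed bile acid genes that passed the standard or were the 3 highest of their list, and the 5 gene symbols most like each of the 4, of which 1 is not reported here. Members and lists were chosen with earlier results of these data known. Alternatives were another pseudocount, other filters and scalings, a replicate block, a Ballgown-type model, a joint fit and leaving out libraries.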

Additional observations from a re-analysis of the deposited data

How the results depend on the processing

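No counts were available, groups held 3 piglets, and no call on the 4 genes passed an adjusted p of 0.05 with all libraries, so that every direction given rests on few animals. Of the 240 values of log2 fold changes under alternatives other than leaving out 1 library, 223 kept both direction and side of the standard. Under other filters, an untrended variance, the replicate block, the joint fit or a single row per name, these fold changes could not move. In those settings only the side of the standard could change. With 1 library left out 154 of 192 did, and 17 changed sign.

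The number of the 4 genes past the standard was 1 for weaning in control litters, and it became 4 in the Ballgown model, 0 when all 12 libraries were fitted together, and 0 to 4 with 1 library left out. For maternal resveratrol at 28 days it was 1, and it became 2 with quantile normalization, 0 in the Ballgown model, 0 in the joint fit and 0 to 4 with 1 library left out. For weaning over all 12 libraries it was 0, and it became 1 with a pseudocount of 0.1, 1 with median-of-ratios rescaling and 0 to 2 with 1 library left out. For the remaining comparisons it was 0, with 0 to 1 when 1 library was left out, and 1 in the difference between litters without the 2 libraries richest in smooth muscle markers, an alternative added after seeing the data that leaves W_Res with 1 piglet, assumed to vary like the other groups. The cause was not tested.

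Replicate numbers are shared by all groups but do not pair the piglets. Correlations of same-numbered libraries ran from -0.26 to 0.30. With a replicate block 3 of the 4 genes passed for resveratrol at 28 days.

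Signs that turned were FABP6 for weaning in resveratrol litters (1.98 in the Ballgown model), NR1H4 for weaning over 12 libraries (-0.30 without the smooth-muscle-rich libraries), SLC51A for resveratrol at 21 days (-0.077 with median-of-ratios rescaling), NR1H4 for resveratrol at 21 days (0.29 in the Ballgown model) and SLC51A for resveratrol at 28 days (0.19 in the Ballgown model), and the correlation of NR1H4 and SLC10A2 in libraries above 1000 FPKM of FABP6 (-0.10). With 1 library left out the ranges that crossed 0 were as follows. In resveratrol litters FABP6 ran from -5.79 to 0.81, NR1H4 from -1.29 to 0.86 and SLC10A2 from -0.56 to 1.54. In the difference between litters NR1H4 ran from -2.07 to 0.084. Over 12 libraries FABP6 ran from -0.27 to 2.66 and NR1H4 from -0.14 to 0.82. For resveratrol at 21 days FABP6 ran from -3.85 to 0.97, NR1H4 from -1.71 to 0.44 and SLC51A from -0.48 to 0.56.

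Counts over all gene names moved more. With a pseudocount of 0.1 they were 853 in place of 418 in control litters, 1163 in place of 618 in resveratrol litters, 539 in place of 173 over 12 libraries, 1008 in place of 590 at 21 days and 488 in place of 224 at 28 days. With a minimum mean of 5 FPKM they were 227, 245, 115, 248 and 122 in the same order, and 364 in place of 1000 in the difference between litters. In the Ballgown model they were 205 in resveratrol litters, 315 in the difference, 227 at 21 days and 148 at 28 days. Without the smooth-muscle-rich libraries 287 passed over 12 libraries. With 1 library left out they ran from 388 to 1049 in resveratrol litters, 633 to 1367 in the difference, 394 to 944 at 21 days, 222 to 426 at 28 days, 380 to 550 in control litters and 162 to 241 over 12 libraries.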
